A study of Mus musculus with 24 samples.

Results

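The 10 genes described here encode subunits of voltage-gated calcium channels. They were picked as a list of gene names, by a rule that holds no measured value, from the 33902 gene symbols of a single-nucleus RNA-seq (snRNA-seq) count table of the mouse ventral hippocampus, and all 10 were found in it. The list itself was chosen with earlier results of these data known. The members are Cacna1a, Cacna1b, Cacna1c, Cacna1d, Cacna1e, Cacna1g, Cacna1h, Cacna1i, Cacna2d1 and Cacna2d3. Their levels were followed across 17 cell types and between 2 inbred strains, C57BL/6J (B6) and DBA/2J (D2, labelled DBA). All animals were adult males of 10 to 16 weeks, and each library held ventral hippocampus pooled from about 2 animals. Each strain had 2 snRNA-seq libraries, sorted on the neuronal marker NeuN to enrich neurons, and 2 libraries of single-nucleus chromatin accessibility (snATAC-seq), which were not sorted on NeuN. Because 1 library is a pool and each strain has 2, the p-values within a cell type set a strain difference against the spread between 2 pools of a strain. That spread is estimated for each gene with the help of all genes.

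Voltage-gated calcium channels open when the membrane depolarizes and let calcium into the cell, where it triggers transmitter release, shapes firing and starts signalling to the nucleus. The pore is an alpha1 subunit, and its gene sets the type of current. Cacna1a makes P/Q-type and Cacna1b N-type channels, which drive transmitter release at nerve terminals. Cacna1c and Cacna1d make L-type channels, which sit mainly on the soma and dendrites and couple activity to gene expression. Cacna1e makes R-type channels, found in dendrites, spines and terminals. Cacna1g, Cacna1h and Cacna1i make T-type channels, which open near rest and support burst firing. Cacna2d1 and Cacna2d3 encode alpha2delta proteins, extracellular auxiliary subunits that promote the surface delivery of channels, and the Cacna2d1 product binds gabapentin and pregabalin.

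The cell types are those of the deposited tables, 8 excitatory (Exc), 3 inhibitory (Inh), Cajal-Retzius cells (CR-CR) and 5 non-neuronal types (NN), in which counts were summed over the nuclei of a type in each library. Exc-DG are dentate granule neurons, CA1 and CA3 are hippocampal fields and ENT is the entorhinal label. MGE and CGE are interneurons named for the medial and caudal ganglionic eminences, and the remaining names are those of genes. NN-Astro are astrocytes, NN-ODC oligodendrocytes, NN-OPC their precursors, NN-MGC microglia and NN-VLMC vascular and leptomeningeal cells. Levels are in CPM, the counts of a gene scaled to a common library total within the type by TMM, and can be compared between types for a gene but not between genes. In what follows the libraries of a strain are always given in the order library 2, library 3, the numbers they carry in the tables. A sum over nuclei does not tell more nuclei with a transcript from more transcript per nucleus.

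The snRNA-seq libraries held 43048686 to 56452272 counts from 6312 to 8707 nuclei, and a type had 139713 to 11352265 counts in a library, with the fewest in CR-CR and NN-VLMC. Of 12 marker lists, 10 had their highest summed level in a type that carries the name. For CA1, a name of several types, this was Exc-CA1-Fras1 (2392 CPM). NN-ODC (1953 CPM) stood above Exc-CA1-Galntl6 (1883 CPM) and Exc-CA1-Camk2d (1393 CPM) for that list. The MGE list was at 1799 CPM in Inh-MGE and 1609 CPM in NN-OPC, and in B6 library 3 at 1108 and 1567 CPM. The Lamp5 list (Lamp5, Ndnf, Npy) reached 869 CPM in CR-CR against 521 CPM in Inh-Lamp5, and the dentate list (Prox1, C1ql2, Dsp) 349 CPM in CR-CR against 327 CPM in Exc-DG. The Cajal-Retzius list stood at 4887 and 5474 CPM in B6 and 3295 and 1336 CPM in D2. D2 library 3 thus stood below the others in CR-CR, where each D2 library also held 45 or 46 nuclei against 171 and 138 in B6.

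All 10 channel genes were expressed more in neurons than in non-neuronal cells. For each gene the 4 libraries' means over the 12 neuronal types all lay above their means over the 5 non-neuronal types, which 23.3% of 15151 genes at 5 CPM or more also did in this direction. The margins ran from 569.6 against 184 CPM for Cacna1a and 465 against 181 CPM for Cacna1d to 211 against 18.8 CPM for Cacna1b. Because cell types were clustered on expression, levels across types are a description and no p is given for them. The split was not the same for every gene in every type. Oligodendrocyte precursors held 494 CPM of Cacna1c and 346 CPM of Cacna1a, inside the neuronal range of 391 to 1447 CPM for Cacna1c and of 320 to 846 CPM for Cacna1a, and microglia held 342 CPM of Cacna1d, inside the neuronal range of 294 to 623 CPM.

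**Figure D1:**
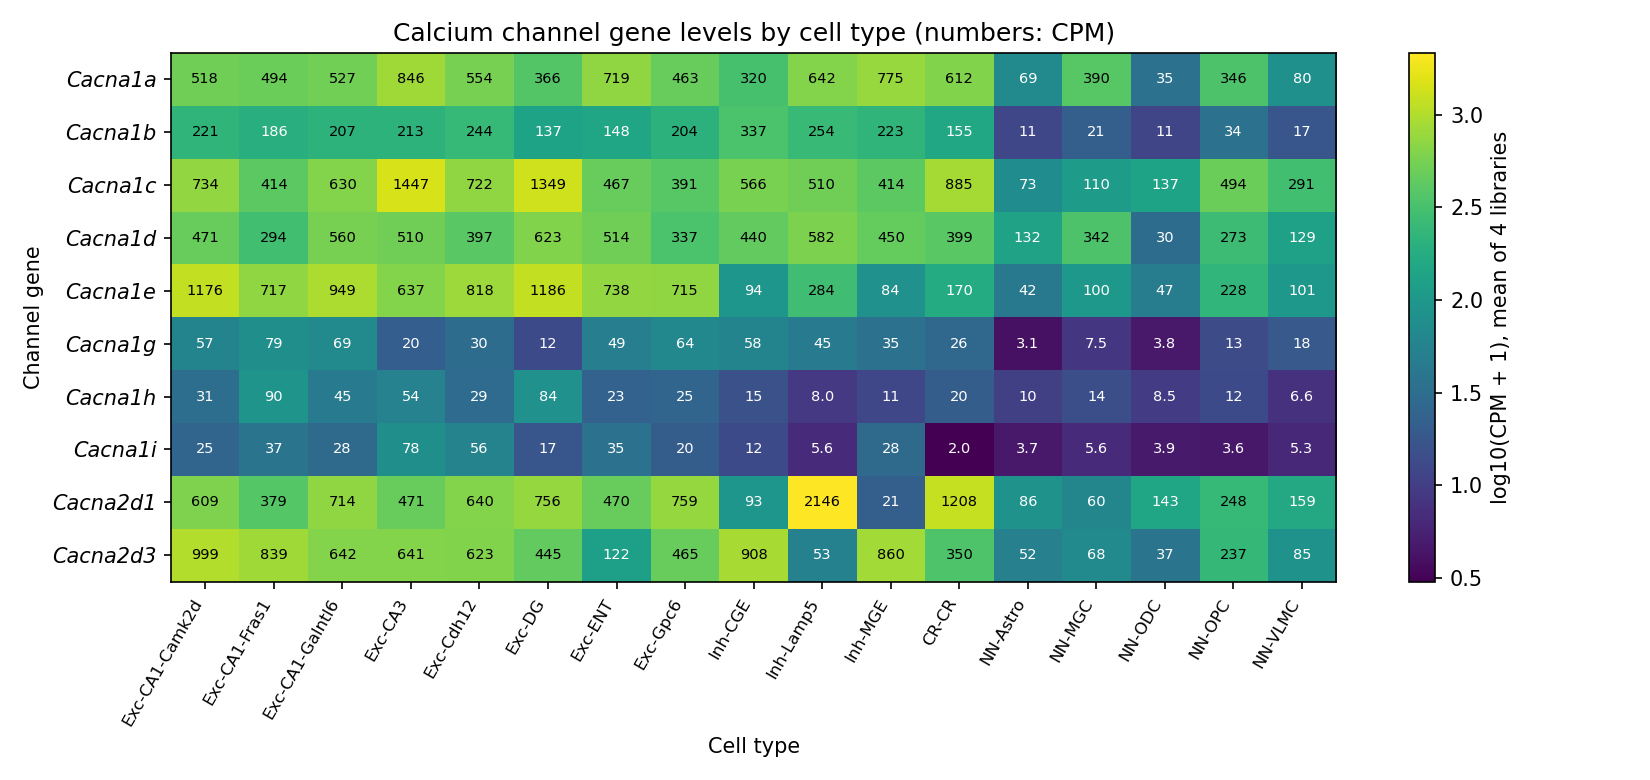
Mean level of the 10 channel genes (rows) in 17 cell types (columns), as CPM over the 4 snRNA-seq libraries; colour is log10(CPM + 1). Most neuronal columns are brighter than the non-neuronal ones at the right, with exceptions such as Inh-MGE for Cacna2d1, which runs from 2146 CPM in Inh-Lamp5 to 21.3 CPM in Inh-MGE.

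Inhibitory and excitatory neurons differed in 5 of the 10 genes, in that the 4 libraries of one class did not overlap those of the other when each library was averaged over its types. Cacna1b, the N-type gene, was higher in inhibitory neurons, at 271 ± 12.2 CPM in inhibitory types and 195 ± 10.9 CPM in excitatory types. Cacna1e, the R-type gene, was lower in them by the widest margin, at 154 ± 26.6 CPM in inhibitory types and 867 ± 42.3 CPM in excitatory types. The T-type genes Cacna1h (11.3 ± 2.21 CPM in inhibitory types and 47.7 ± 3.25 CPM in excitatory types) and Cacna1i (15.4 ± 2.21 CPM in inhibitory types and 36.8 ± 3.03 CPM in excitatory types) and the L-type gene Cacna1c (497 ± 29.1 CPM in inhibitory types and 769 ± 64.8 CPM in excitatory types) were also lower in inhibitory types (mean ± SD over 4 libraries throughout). Over 13375 genes, 21.8% were higher and 19.6% lower in inhibitory neurons by the same rule, so 1 and 4 of 10 members stand against those shares of all genes. Cacna1a, Cacna1d, Cacna1g, Cacna2d1 and Cacna2d3 overlapped between the classes. For the alpha2delta genes the types of a class were unlike, as described below, and the direction of Cacna2d1 depended on how they were combined. Averaged over types it was at 753 ± 75.7 CPM in inhibitory types and 599.8 ± 67.7 CPM in excitatory types, but with counts summed over each class it was lower in inhibitory neurons, at 350.1 against 615 CPM. Summed in this way Cacna2d3 was higher in them, at 758 against 579 CPM.

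**Figure D2:**
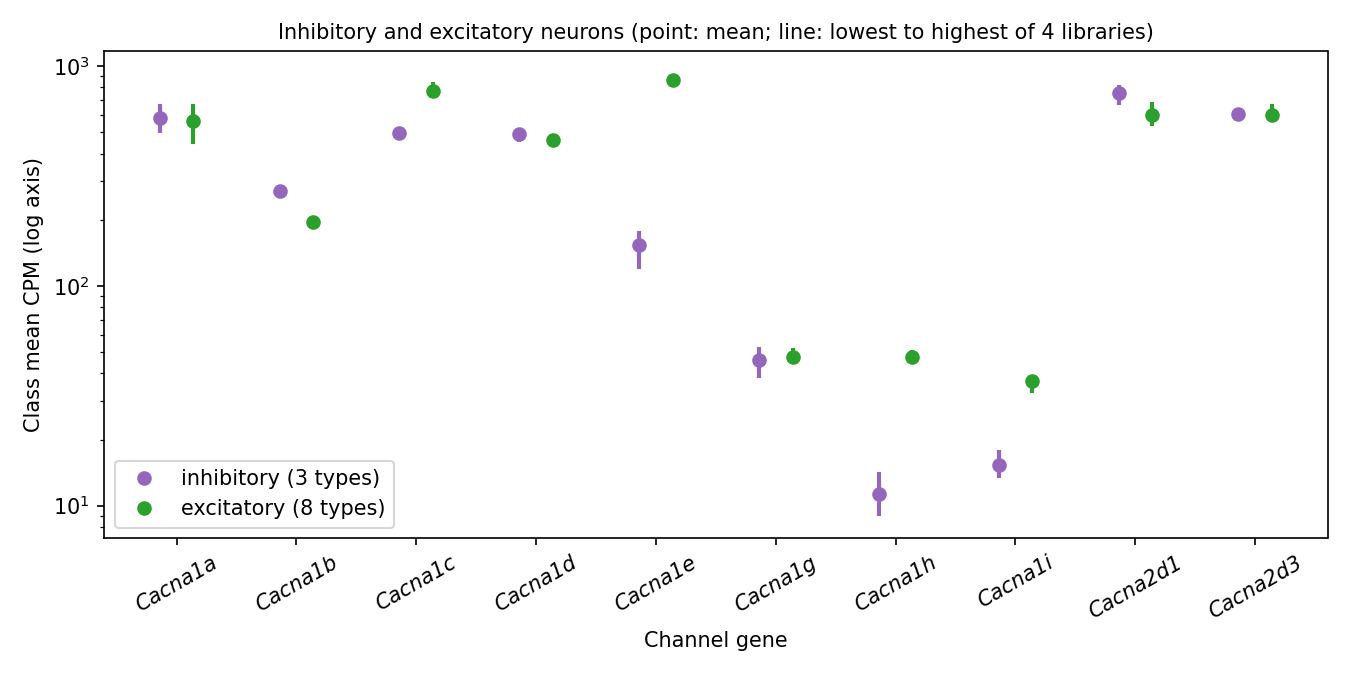
Level of each channel gene in inhibitory (3 types, purple) and excitatory (8 types, green) neurons, in CPM on a log axis; points are means and lines run from the lowest to the highest of 4 libraries. The gap is widest for Cacna1e, at 154 against 867 CPM, and the lines of Cacna1a, Cacna1d, Cacna1g, Cacna2d1 and Cacna2d3 overlap.

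Between strains the channel genes were lower in D2 far more often than higher. Of 170 pairs of a gene and a cell type, 155 had enough counts to be tested and the other 15, in T-type genes and in Cacna1b in NN-VLMC, did not. With edgeR's quasi-likelihood test and Benjamini-Hochberg adjustment over all genes of a type, 36 pairs passed an adjusted p of 0.05, 32 of them lower and 4 higher in D2. Lower pairs made up 20.6% of those tested, against 9.26% of 219518 pairs over all gene symbols (20320 pairs), and higher pairs 2.58% against 12.9%. Some symbols had counts in only one strain, among them every counted pseudogene that overlaps a member, with counts in D2 only. Among symbols with counts in both strains the background was 9.31% lower and 7.22% higher. The median log2 fold change (D2 over B6) was -0.16 over the members' pairs, 0.03 over all pairs and 0.01 over pairs of symbols found in both strains. Called pairs lay in 15 of 17 types, 24 in neurons and 12 in non-neuronal cells, with none in CR-CR or Exc-Cdh12. The pairs are the same genes measured in many types of the same libraries, so they are not independent. Because the list was chosen with earlier results of these data known, its shares beside the background are a description. Most lower calls were in a few genes, 9 in Cacna1a, 7 in Cacna1e and 7 in Cacna2d1. Cacna1c and Cacna2d3 had 3 each, Cacna1b, Cacna1d and Cacna1g 1 each, and Cacna1h and Cacna1i 0.

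**Figure D3:**
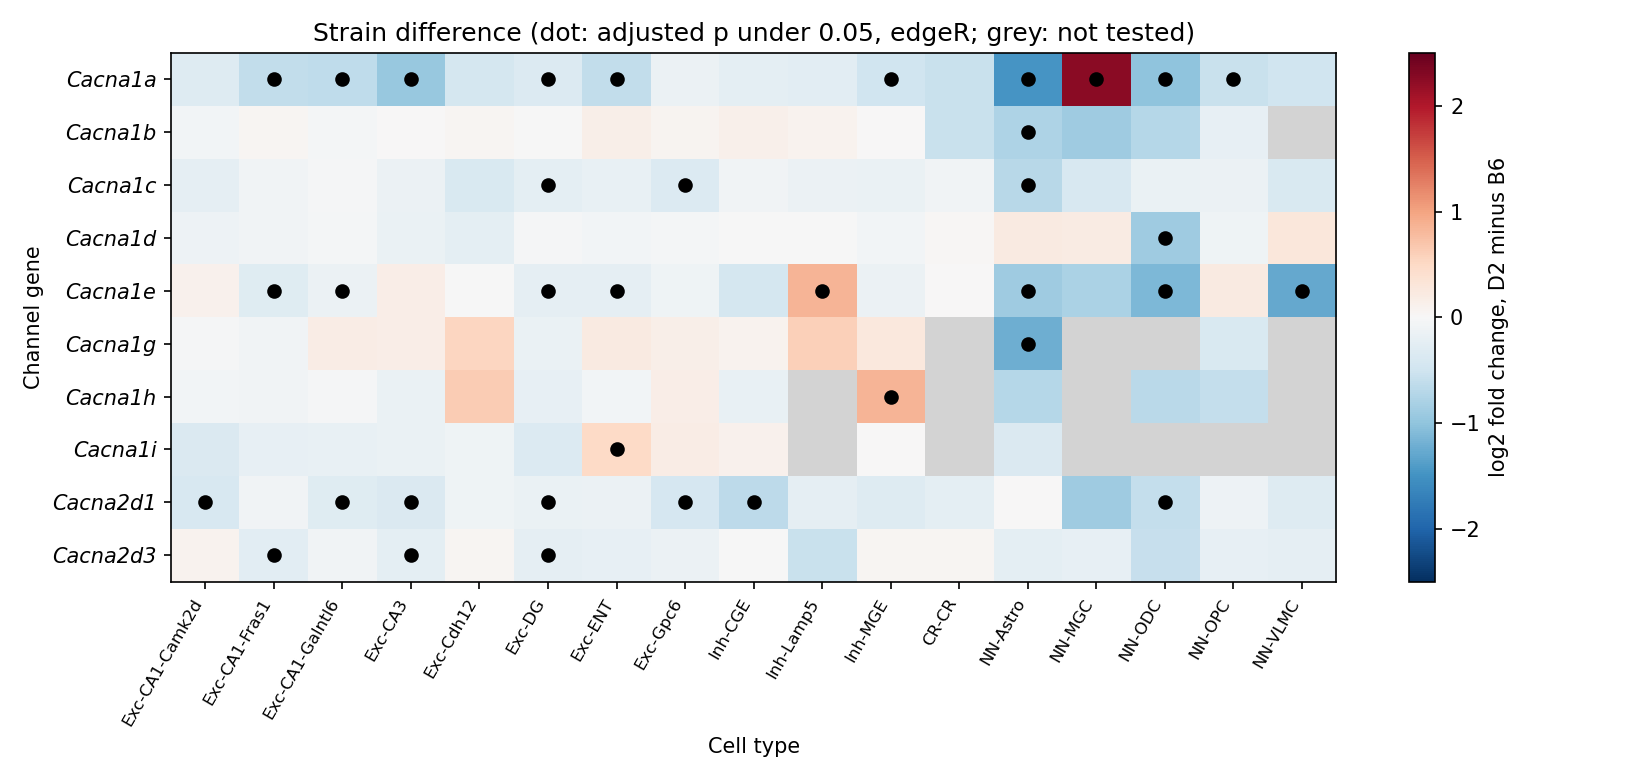
Strain difference of each channel gene (rows) in each cell type (columns), as the log2 fold change of D2 over B6 from edgeR; blue is lower and red higher in D2, dots mark adjusted p under 0.05 and grey cells were not tested. The Cacna1a row holds 9 dots on blue cells and 1 on a red cell, in NN-MGC, and the Exc-DG column 5 dots on blue cells.

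The types with most calls were Exc-DG and NN-Astro, with 5 of 10 members lower in D2 each, and NN-ODC, with 4 of 8. The share of all tested genes called lower was 13.8% in Exc-DG, 11.7% in NN-Astro and 8.93% in NN-ODC. No member was higher in Exc-DG, where 22.2% of all genes were. That share includes symbols counted in D2 only. In a fit of symbols counted in both strains, 1845 of 15759 were higher and 2152 lower in D2 in this type. In Exc-DG every member had a fold change below 0, with a median of -0.21 on the log2 scale. The median was 0.06 over all genes and 0.01 over genes found in both strains. Cacna1a, Cacna1c, Cacna1e, Cacna2d1 and Cacna2d3 passed the test there, with differences between -0.35 and -0.17, and the 3 T-type genes, Cacna1b and Cacna1d did not. Cacna1c, for instance, stood at 1493 and 1427 CPM in B6 and 1254 and 1221 CPM in D2 (edgeR, log2 fold change -0.24, SE 0.06, adjusted p = 0.00557). Without D2 library 3, 22 pairs in place of 36 passed the test over all types, and in Exc-DG Cacna1e, Cacna2d1 and Cacna2d3 then did not.

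In the non-neuronal types neuron transcripts moved with several of these calls. The summed level of Rbfox3, Snap25 and Syt1, all 3 detected in every type, was 263 and 320.4 CPM in B6 and 239 and 154 CPM in D2 in NN-Astro, 319.8 and 378 CPM in B6 and 284 and 188 CPM in D2 in NN-ODC and 381 and 505 CPM in B6 and 263 and 236 CPM in D2 in NN-VLMC. In NN-OPC it was 481 and 524 CPM in B6 and 454 and 372 CPM in D2. In the excitatory and inhibitory types it was 3174 to 5769 CPM. The B6 libraries were thus the higher ones in each of these 4 types, as they were for the called channel genes there, and the part of neuron RNA in those calls was not tested.

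Strain differences were unequal between cell types for 4 members. An F test of all strain by cell type terms in one fit of the 17 types, adjusted over 21050 genes, gave adjusted p = 4.29e-23 for Cacna1a, 2.55e-10 for Cacna1e, 0.0104 for Cacna1h and 0.0449 for Cacna1i (edgeR). Of all genes 14.7% passed this test. It takes the types of a library as separate columns, so its p-values rest on the spread of types within libraries and not on pools alone. Among the 12 neuronal types alone it gave adjusted p = 0.000537 for Cacna1a, 1.56e-05 for Cacna1e and 0.03 for Cacna1h, against 7.56% of all genes, and Cacna1i was at 0.0814. Cacna1a and Cacna1e passed under all 10 alternatives tried, Cacna1h under 6 and Cacna1i under 2. The other 6 members were at 0.0847 or above. Of these, Cacna1c (0.0375) and Cacna1d (0.00255) passed with DESeq2, Cacna2d1 passed with all genes of 1 count or more (0.0116) and without D2 library 3 (0.000913), and Cacna2d3 passed without B6 library 3 (0.00245). A value above the threshold does not show that a strain difference was equal in all types.

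Cacna1a, the P/Q-type pore gene, lies on the plus strand of chromosome 8 (GRCm38, chr8:84388440-84640246). Its highest neuronal mean over the 4 libraries was in Exc-CA3, at 1179.6, 1043, 635 and 525 CPM in B6 libraries 2 and 3 and D2 libraries 2 and 3, and its lowest in Inh-CGE, at 379.9, 316, 292 and 294 CPM, a 2.64-fold span of means. The top of this order held in B6 only. Exc-CA3 was at 1111 CPM in B6 with Inh-MGE next at 909 CPM, while in D2 Inh-MGE was at 641, Inh-Lamp5 at 582 and Exc-CA3 at 579.7 CPM. With both strains together the libraries of neighbouring types overlapped all the way from Exc-CA3 to Inh-CGE, and the only break was between Inh-CGE and NN-VLMC, at 320.4 and 79.9 CPM.

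Cacna1a was lower in D2 in 9 types, among them 5 of the 8 excitatory types, Inh-MGE and 3 non-neuronal types, and every B6 library was above every D2 library in 16 of 17 types. In Exc-CA3 it stood at 1179.6 and 1043 CPM in B6 and 635 and 525 CPM in D2 (edgeR, log2 fold change -0.94, SE 0.09, adjusted p = 2.44e-07). In Exc-ENT it stood at 913 and 830.2 CPM in B6 and 580.5 and 553 CPM in D2 (log2 fold change -0.62, SE 0.08, adjusted p = 2.35e-08). The CA1 types Exc-CA1-Galntl6 and Exc-CA1-Fras1 were close to this in size, with log2 fold changes of -0.64 (SE 0.06, adjusted p = 1.41e-07) and -0.62 (SE 0.08, adjusted p = 6.46e-07). In the first of them the libraries were at 650.0 and 632 CPM in B6 and 415 and 409.6 CPM in D2, and in the second at 607 and 588 CPM in B6 and 386 and 394 CPM in D2. The B6 libraries lay above the D2 libraries in each of these 4 types. Smaller differences were called in Exc-DG (-0.35), Inh-MGE (-0.50) and NN-OPC (-0.56, SE 0.11, adjusted p = 1.08e-05), the last from 418 and 408 CPM in B6 and 277 and 283 CPM in D2.

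Astrocytes and microglia moved in opposite directions. In NN-Astro Cacna1a was at 105 and 98.0 CPM in B6 and 39.2 and 34.3 CPM in D2, a 2.76-fold difference with B6 higher (edgeR, log2 fold change -1.47, SE 0.13, adjusted p = 9.7e-12), and NN-ODC was also lower in D2 (-1.01). In NN-MGC it was at 169 and 106 CPM in B6 and 672 and 611 CPM in D2, 4.77-fold higher in D2 (log2 fold change 2.25, SE 0.18, adjusted p = 2.03e-07), from 81 to 355 counts a library. The D2 microglia thus lay within the range of D2 neurons in CPM, 292 to 677 CPM, while the B6 microglia lay below every B6 neuronal type. CPM is a share of a type's counts and not an amount per nucleus. In D2, NN-MGC held 439262 and 593279 counts from 204 and 242 nuclei, and Inh-CGE 2253504 and 1806953 counts from 273 and 210 nuclei. The fold change in NN-MGC stayed between 1.93 and 2.60 on the log2 scale under 10 alternatives and passed the test in each. The neuron markers were higher in B6 here, with a sum in NN-MGC of 709 and 616 CPM in B6 and 313 and 499 CPM in D2. The part of neuron RNA in this call was not tested. The 4 microglia markers (Cx3cr1, Csf1r, C1qa, P2ry12) summed to 4256 and 4307 CPM in B6 and 4725 and 5304 CPM in D2, and the type had 204 to 358 nuclei a library. Over the 48 snATAC-seq peaks within the gene, NN-MGC was at 221 and 193 CPM in B6 and 257 and 281 CPM in D2, from 419 counts in all, with no test.

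An antisense gene, Gm16183, lies within Cacna1a on the opposite strand (chr8:84611202-84617184), and whether the counting used strand is not given in the sources used here. It was chosen for description after its values were seen. In NN-MGC Gm16183 was at 15.4 and 24.8 CPM in B6 and 127 and 117 CPM in D2 (log2 fold change 2.53, adjusted p = 1.32e-05, edgeR). In NN-Astro it was lower in D2 like Cacna1a (-1.55, adjusted p = 1.86e-06), and in Exc-CA3 as well (-0.42, adjusted p = 0.00468). In Exc-DG and Exc-ENT, where Cacna1a was lower, it was at -0.05 and -0.09 and did not pass. Its profile over the 17 types was also the closest to that of Cacna1a among 17172 genes. The genes most like it were Gm16183 (r = 0.987), Lrrfip1 (r = 0.948) and Madd (r = 0.936). These values and those given for other members are Pearson correlations of log2(CPM + 1) over 17 type means from the same 4 libraries, and for Gm16183 the 2 genes share the locus.

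**Figure D4:**
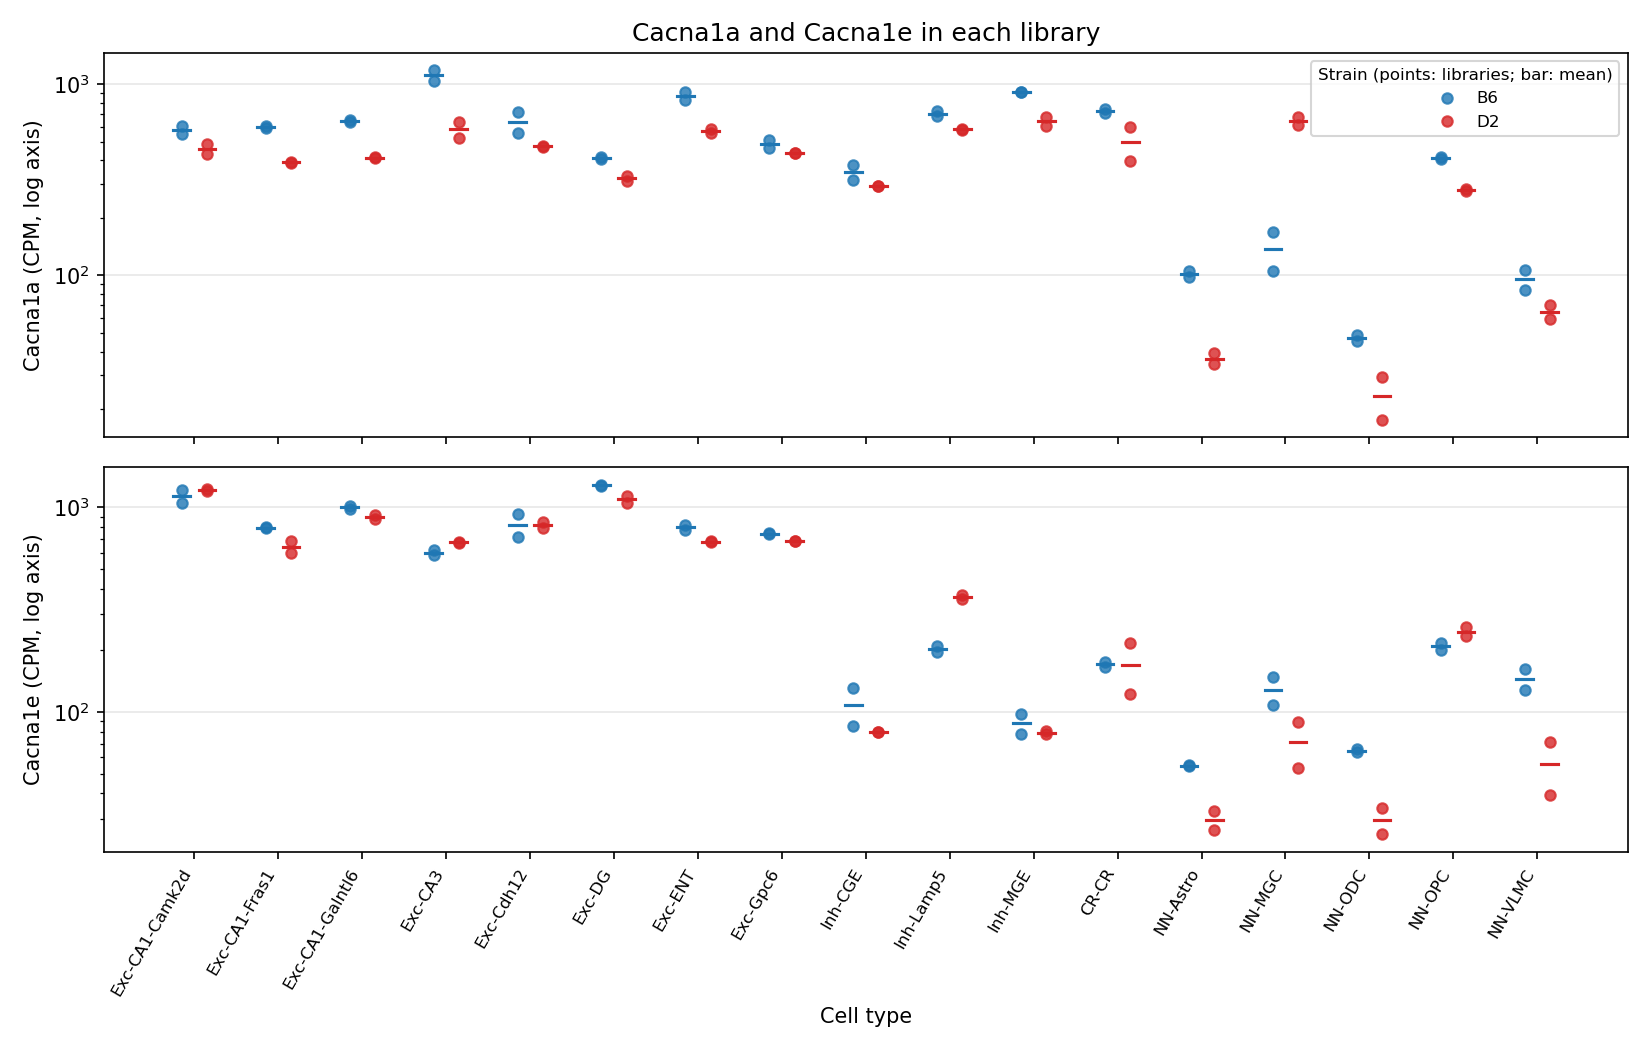
Cacna1a (top) and Cacna1e (bottom) in every snRNA-seq library of every cell type, in CPM on log axes; blue points are the 2 B6 and red points the 2 D2 libraries, bars their means. Cacna1a is higher in B6 in all types but NN-MGC, where D2 is at 672 and 611 CPM, and Cacna1e is higher in D2 in Inh-Lamp5, at 358 and 373 CPM.

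Cacna1b, the N-type pore gene on the minus strand of chromosome 2 (chr2:24603887-24763152), had no strain call in any neuronal type. It was highest in Inh-CGE, at 329, 316, 387 and 317 CPM, apart from the next type, Inh-Lamp5 (254 CPM), and lowest among neurons in Exc-DG, at 133, 141, 146 and 127 CPM, although in D2 alone CR-CR was lower (126 CPM). From Inh-Lamp5 down to Exc-DG each neighbour overlapped the next. Below Exc-DG came a clear step to NN-OPC (34.2 CPM). All 11 excitatory and inhibitory types had log2 fold changes (D2 over B6) between -0.07 and 0.15, while CR-CR was at -0.56 with 19 to 92 counts a library (adjusted p = 0.329, edgeR). The single call was in NN-Astro, at 13.8 and 14.3 CPM in B6 and 10.4 and 6.04 CPM in D2 (log2 fold change -0.78, SE 0.28, adjusted p = 0.0395), and it was lost under 6 of 10 alternatives. Genes with the most similar profile were Snhg14 (r = 0.983), Cyp4x1 (r = 0.977) and Disp2 (r = 0.977).

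Cacna1c, an L-type gene (minus strand, chr6:118587240-119196418), was highest in 2 hippocampal principal cell types, at 1529, 1505, 1377 and 1375 CPM in Exc-CA3 and 1493, 1427, 1254 and 1221 CPM in Exc-DG, and these types did not overlap the next, CR-CR (885 CPM). Its lowest neuronal level was in Exc-Gpc6, at 443, 433, 351 and 335 CPM, 3.70-fold under Exc-CA3, although in B6 alone Exc-CA1-Fras1 was lower (426 CPM). All 17 types had a Cacna1c fold change below 0, and 3 were called. Beside Exc-DG these were Exc-Gpc6 (edgeR, log2 fold change -0.35, SE 0.10, adjusted p = 0.00727) and NN-Astro, at 85.0 and 95.5 CPM in B6 and 56.6 and 54.9 CPM in D2 (log2 fold change -0.70, SE 0.13, adjusted p = 2.41e-05). The profiles closest to that of Cacna1c were Erc2 (r = 0.934), 4930532I03Rik (r = 0.930) and Fam57b (r = 0.929), of which Erc2 encodes a presynaptic active zone protein.

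Cacna1d, the other L-type gene (minus strand, chr14:30039939-30491455), spanned least of all members among neurons. It ran from 631, 628, 660.0 and 573 CPM in Exc-DG to 289, 317, 307 and 261 CPM in Exc-CA1-Fras1, a 2.12-fold span of means. Exc-DG overlapped the interneuron type Inh-Lamp5, at 563, 608, 602 and 554 CPM. Of its 16 neighbour steps, 4 were free of overlap. Microglia, at 308, 327, 357 and 377 CPM, overlapped Exc-Cdh12 above and Exc-Gpc6 below. No neuronal type was called between strains, with log2 fold changes of -0.25 to 0.03. The only call was in NN-ODC, at 43.2 and 33.7 CPM in B6 and 22.9 and 18.3 CPM in D2 (edgeR, log2 fold change -0.89, SE 0.24, adjusted p = 0.00986), and it was lost without D2 library 3, without B6 library 2 and with DESeq2. Cacna1d ran closest to Gm17218 (r = 0.953), Slc9a7 (r = 0.936) and Snx10 (r = 0.931). Among the members themselves the most alike pair was Cacna1a and Cacna1d (r = 0.913 over 17 types).

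The 2 L-type genes have several annotated starts, and not all of them lay in open chromatin. The 250 bases before the RefSeq starts of Cacna1d (GRCm38.p6, 5′ to 3′ on the minus strand, CG dinucleotides in capitals) are shown because a peak of snATAC-seq counts in any cell type covered the first and none covered the second.
Cacna1d internal start, chr14:30353487-30353736: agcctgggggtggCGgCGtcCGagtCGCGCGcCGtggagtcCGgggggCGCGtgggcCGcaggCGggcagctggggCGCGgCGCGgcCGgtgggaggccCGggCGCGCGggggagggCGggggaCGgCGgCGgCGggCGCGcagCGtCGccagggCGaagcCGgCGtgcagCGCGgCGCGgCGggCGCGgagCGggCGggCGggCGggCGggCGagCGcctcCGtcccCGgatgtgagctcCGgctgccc
Cacna1d distal start, chr14:30491157-30491406: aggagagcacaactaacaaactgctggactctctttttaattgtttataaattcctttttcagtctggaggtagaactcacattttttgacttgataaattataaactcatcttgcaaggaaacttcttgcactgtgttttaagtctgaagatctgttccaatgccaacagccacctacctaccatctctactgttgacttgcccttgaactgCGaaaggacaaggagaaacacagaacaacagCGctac
The internal sequence holds 50 CG and 3 copies of GGGCGG (the GC box, counted on both strands), and the distal one 2 CG and 3 copies of TATAAA. Of 32851 RefSeq promoters of this length, with a median of 6 CG, 32.7% hold GGGCGG and 12.4% TATAAA. The peak over the internal start was at 15.9, 15.1, 16.2 and 15.5 CPM in Exc-DG. At Cacna1c likewise, the window before the start at chr6:119108496-119108745 held 48 CG and lay in a peak (39.4 CPM in Exc-DG), while that at chr6:119196410-119196659 held 2 CG and lay in none. A low CG count did not always go with the lack of a peak, as the Cacna1c window at chr6:118757975-118758224 held 5 CG and lay in one. Motif matches are a description of these letters only.

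Cacna1e, the R-type pore gene on the minus strand of chromosome 1 (chr1:154390731-154884501), separated excitatory from inhibitory neurons type by type. Its highest mean over the 4 libraries was in Exc-DG, at 1267, 1289.5, 1139 and 1049.6 CPM, which overlapped Exc-CA1-Camk2d (1176 CPM), and lowest in Inh-MGE, at 78.4, 97.2, 77.8 and 80.8 CPM, 14.2-fold less. Exc-DG was above Exc-CA1-Camk2d in B6 (1278 against 1133 CPM) and below it in D2 (1094 against 1219 CPM). The lowest excitatory type, Exc-CA3, still held 637 CPM. Inh-Lamp5, at 284 CPM, was the highest inhibitory type, and Inh-CGE (94.1 CPM) and Inh-MGE (83.5 CPM) were under the 228 CPM of oligodendrocyte precursors. The genes nearest to it were Ak5 (r = 0.968), Eftud2 (r = 0.947) and Chrm1 (r = 0.942), of which Chrm1 is a muscarinic acetylcholine receptor of pyramidal neurons.

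The strain difference of Cacna1e turned with the cell type. In Inh-Lamp5 it was higher in D2, at 195 and 209 CPM in B6 and 358 and 373 CPM in D2 (edgeR, log2 fold change 0.85, SE 0.13, adjusted p = 1.41e-05), and this passed under 10 of 10 alternatives with log2 fold changes of 0.79 to 0.90. The Lamp5 marker list also stood higher in D2 in this type, at 424 and 386 CPM in B6 and 502 and 772 CPM in D2, and its part in the difference was not tested. The other inhibitory types were at -0.44 in Inh-CGE and -0.15 in Inh-MGE, neither called. In 4 excitatory types Cacna1e was lower in D2 by small amounts, -0.31 in Exc-CA1-Fras1, -0.23 in Exc-ENT, -0.22 in Exc-DG and -0.15 in Exc-CA1-Galntl6, and each of these lost the threshold under at least 1 alternative. In Exc-CA3 the libraries leaned the other way, at 615 and 586 CPM in B6 and 667 and 679.9 CPM in D2 (0.17, adjusted p = 0.0921).

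Among non-neuronal cells Cacna1e was lower in D2 in 3 types. In NN-Astro it stood at 54.2 and 55.1 CPM in B6 and 32.8 and 26.6 CPM in D2 (edgeR, log2 fold change -0.88, SE 0.15, adjusted p = 1.05e-05). NN-ODC followed at 63.4 and 65.9 CPM in B6 and 34.0 and 25.3 CPM in D2 (log2 fold change -1.13, SE 0.20, adjusted p = 8.14e-05). NN-VLMC, with 12 to 63 counts a library, was at 163 and 128 CPM in B6 and 71.5 and 39.4 CPM in D2 (log2 fold change -1.27, SE 0.31, adjusted p = 0.00367), a call lost without D2 library 3 and with DESeq2. Oligodendrocyte precursors, at 0.23, were not called.

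The T-type genes were the least counted members, and 14 of the 15 untested pairs were theirs. Cacna1g (minus strand, chr11:94408391-94474198) was highest in Exc-CA1-Fras1, at 79.4, 83.0, 80.02 and 72.1 CPM, and lowest among neurons in Exc-DG, at 13.4, 12.4, 12.1 and 10.8 CPM, 6.45-fold less. None of its neighbour steps was free of overlap. Cacna1h (minus strand, chr17:25374285-25433783) was highest in Exc-CA1-Fras1, at 96.4, 90.0, 87.8 and 87.1 CPM, and overlapped Exc-DG (83.7 CPM). Dentate granule neurons were thus near the top for Cacna1h and at the bottom of the neurons for Cacna1g. The lowest neuronal Cacna1h level was in Inh-Lamp5, at 9.16, 4.43, 11.9 and 6.50 CPM, from 29 counts in all.

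Cacna1i (plus strand, chr15:80287238-80398279) was highest in Exc-CA3, at 84.9, 79.4, 79.1 and 67.3 CPM, and next in Exc-Cdh12 (55.6 CPM). In CR-CR it had 2 counts over the 4 libraries, so no fold is given, and the next lowest neuronal type was Inh-Lamp5, at 7.12, 7.97, 4.77 and 2.60 CPM. Within the inhibitory class Inh-MGE (28.1 CPM) held more Cacna1i than Inh-CGE (12.4 CPM) or Inh-Lamp5. Of profiles over the 17 types, those nearest to Cacna1g were Prkar1b (r = 0.969), B830012L14Rik (r = 0.917) and Efnb2 (r = 0.915), those nearest to Cacna1h Gm26592 (r = 0.929), Unc5a (r = 0.928) and 2010300C02Rik (r = 0.903) and those nearest to Cacna1i Slc6a7 (r = 0.920), 5430400D12Rik (r = 0.904) and Stk25 (r = 0.903). Slc6a7 encodes the brain proline transporter and Unc5a a netrin receptor.

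The T-type genes gave 2 of the 4 pairs that were higher in D2, and neither was stable. Cacna1h in Inh-MGE stood at 8.21 and 7.93 CPM in B6 and 15.2 and 13.7 CPM in D2, from 29 to 62 counts a library (edgeR, log2 fold change 0.85, SE 0.25, adjusted p = 0.025), and lost the threshold under 4 of 10 alternatives, with adjusted p from 0.00968 to 0.326. Cacna1i in Exc-ENT stood at 31.4 and 26.3 CPM in B6 and 45.4 and 35.6 CPM in D2 (log2 fold change 0.50, SE 0.15, adjusted p = 0.0112) and lost it under 3, with adjusted p from 0.00177 to 0.301. In both pairs the D2 libraries were above the B6 libraries. Cacna1g was called in NN-Astro alone, lower in D2 (-1.22), from 6 to 17 counts a library, and held under 1 alternative of 10.

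The alpha2delta genes divided the interneuron types. Cacna2d1 (plus strand, chr5:15934691-16374511) spanned 100.7-fold between interneuron types, from 2317, 2311, 1924 and 2031 CPM in Inh-Lamp5, above all other types, to 24.6, 23.0, 20.9 and 16.8 CPM in Inh-MGE, below all 5 non-neuronal types' means of 59.9 to 248 CPM. Inh-CGE was low as well (93.4 CPM). CR-CR came second with 1234, 1375, 1587 and 635 CPM, the last from the D2 library that stood apart in its markers, and excitatory types lay between 379 and 759 CPM.

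Cacna2d3 (minus strand, chr14:28904943-29721864) ran nearly opposite in the interneurons. It stood at 881, 945, 943 and 863 CPM in Inh-CGE and 882, 811, 872 and 873 CPM in Inh-MGE, but at 70.2, 55.8, 45.3 and 39.0 CPM in Inh-Lamp5. The highest type was Exc-CA1-Camk2d, at 779, 1161, 1027 and 1029 CPM, 19.0-fold over Inh-Lamp5. Exc-ENT was low among excitatory types, at 122 CPM against 445 CPM or more in the others. Over the 17 types the 2 alpha2delta genes were the least alike pair of members (r = 0.122). Genes with a profile like Cacna2d1 were Gm43000 (r = 0.964), Gm3510 (r = 0.857) and Gm11670 (r = 0.829), and like Cacna2d3 Lrtm1 (r = 0.992), Gm48006 (r = 0.984) and Gm48003 (r = 0.984). Gm43000 lies within Cacna2d1, and Lrtm1, Gm48006 and Gm48003 within Cacna2d3, all on the opposite strand, and without strand in the counting, which is not given, reads of such a pair cannot be told apart.

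In D2 both alpha2delta genes were lower in part of the types and higher in none. Cacna2d1 passed the test in 7 types, Exc-CA1-Camk2d, Exc-CA1-Galntl6, Exc-CA3, Exc-DG, Exc-Gpc6, Inh-CGE and NN-ODC, with log2 fold changes of -0.17 to -0.65. In Exc-Gpc6 it was at 837 and 899 CPM in B6 and 625 and 674 CPM in D2 (edgeR, log2 fold change -0.42, SE 0.09, adjusted p = 0.000601). In Exc-CA1-Galntl6 it was at 755 and 822 CPM in B6 and 648 and 632 CPM in D2 (log2 fold change -0.30, SE 0.06, adjusted p = 0.000463). These 2, Exc-CA3 and NN-ODC passed under all 10 alternatives, and the other 3 lost the threshold under 4 each. For Inh-CGE the losses included both fits that left 1 D2 library, which called nothing among all genes of that type. The log2 fold change in Inh-CGE ran from -0.97 to -0.36 over the alternatives. In Inh-Lamp5, its highest type, Cacna2d1 was at 2317 and 2311 CPM in B6 and 1924 and 2031 CPM in D2 and not called (adjusted p = 0.174). Cacna2d3 was lower in Exc-CA1-Fras1 (-0.26), Exc-CA3 (-0.24) and Exc-DG (-0.23), and all 3 calls were lost without D2 library 3. A gene within Cacna2d1 on its own strand, Gm43490, had counts in D2 only (444 over all types, against 43985 for Cacna2d1 in D2). The same held for every counted pseudogene and small RNA gene that overlaps a member. Gm47570 in Cacna1d had 0 counts in B6 and 1369 in D2, Gm6043 in Cacna2d3 0 and 201, and Gm18981 in Cacna1c 0 and 90. Overlapping coding and antisense genes had counts in both strains. The part of such D2-only genes in the members' lower D2 counts was not tested.

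Chromatin accessibility at the start sites of the alpha2delta genes was set beside their RNA across types. The 250 bases before 3 starts are printed because their openness divided the interneurons (GRCm38.p6, 5′ to 3′ on the gene's strand, CG in capitals).
Cacna2d1 start, plus strand, chr5:15934441-15934690: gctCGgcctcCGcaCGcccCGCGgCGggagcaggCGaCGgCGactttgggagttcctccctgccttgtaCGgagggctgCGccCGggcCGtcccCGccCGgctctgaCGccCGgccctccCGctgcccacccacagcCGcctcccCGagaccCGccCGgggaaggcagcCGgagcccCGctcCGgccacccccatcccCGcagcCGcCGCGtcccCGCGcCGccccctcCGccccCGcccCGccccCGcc
Cacna2d3 main start, minus strand, chr14:29721865-29722114: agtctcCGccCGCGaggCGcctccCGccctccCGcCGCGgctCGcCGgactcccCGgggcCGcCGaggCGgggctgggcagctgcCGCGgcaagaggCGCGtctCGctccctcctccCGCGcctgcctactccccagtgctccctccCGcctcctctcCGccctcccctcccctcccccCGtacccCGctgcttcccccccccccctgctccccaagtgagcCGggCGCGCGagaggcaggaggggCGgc
Cacna2d3 internal start, minus strand, chr14:28969472-28969721: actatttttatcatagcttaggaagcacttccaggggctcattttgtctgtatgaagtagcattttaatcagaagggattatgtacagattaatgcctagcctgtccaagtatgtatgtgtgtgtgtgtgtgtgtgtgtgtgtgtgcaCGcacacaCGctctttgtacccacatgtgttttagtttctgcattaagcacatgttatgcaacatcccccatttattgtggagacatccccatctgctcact
The first 2 hold 36 and 30 CG and 5 and 4 copies of GGGCGG on both strands, and the internal start of Cacna2d3 holds 2 CG and none. TGACGTCA, the cyclic AMP response element, which 1.55% of promoters of this length hold, was in none of the 3. The peak over the Cacna2d1 start (chr5:15933540-15936488) was at 37.1, 40.9, 34.6 and 33.3 CPM in Inh-Lamp5 and at 10.5, 9.43, 8.57 and 8.85 CPM in Inh-MGE, its lowest neuronal level. Inh-CGE was between them at 20.7 CPM. All libraries of Inh-MGE lay below all of Inh-CGE, and all of Inh-CGE below all of Inh-Lamp5. The highest level was in Exc-Gpc6 (47.3 CPM), which was not the type with the most RNA.

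At Cacna2d3 it was the CpG-poor internal start and not the main one that was nearly closed in Inh-Lamp5. Its peak (chr14:28968838-28970005) was at 1.30, 1.15, 1.17 and 0 CPM in Inh-Lamp5, against 6.40, 7.68, 6.92 and 5.86 CPM in Inh-CGE and 6.28, 5.93, 5.44 and 5.34 CPM in Inh-MGE. Inh-Lamp5 had 7139259 snATAC-seq counts over the libraries, so its levels here are few counts a library. The internal peak was highest among neurons in Exc-Gpc6 (12.7 CPM), which was not the type with the most RNA. The peak over the main start (chr14:29721271-29723601) stood at 30.4 CPM in Inh-Lamp5, also below Inh-CGE, its highest neuronal type (50.8 CPM). It was lowest in Exc-ENT, at 20.7 CPM, the excitatory type with the least Cacna2d3 RNA. Over 11 neuronal types the correlation of log2 peak level with log2 RNA level was 0.902 for the Cacna2d1 peak, 0.733 for the internal and 0.648 for the main Cacna2d3 peak. These are descriptions of 11 type means over libraries that differ in depth by type, with no p. The authors gave snATAC-seq nuclei their types by matching accessibility over gene bodies and just upstream to RNA. A correlation of accessibility with RNA across types is thus partly built in.

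Accessibility was also summed over whole gene bodies. Since accessibility over gene bodies helped to assign the nuclei to types, these correlations with RNA are partly built in as well. Counts in all peaks within a gene, summed per type, correlated with its RNA over the 11 neuronal types at 0.973 for Cacna2d1 (111 peaks), 0.971 for Cacna1e (107 peaks), 0.930 for Cacna1c (115 peaks) and 0.924 for Cacna1d (76 peaks). The lowest value was 0.454, for Cacna1g with 15 peaks. In Inh-MGE the Cacna2d1 body was at 74.7 CPM and in Inh-Lamp5 at 298 CPM.

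**Figure D5:**
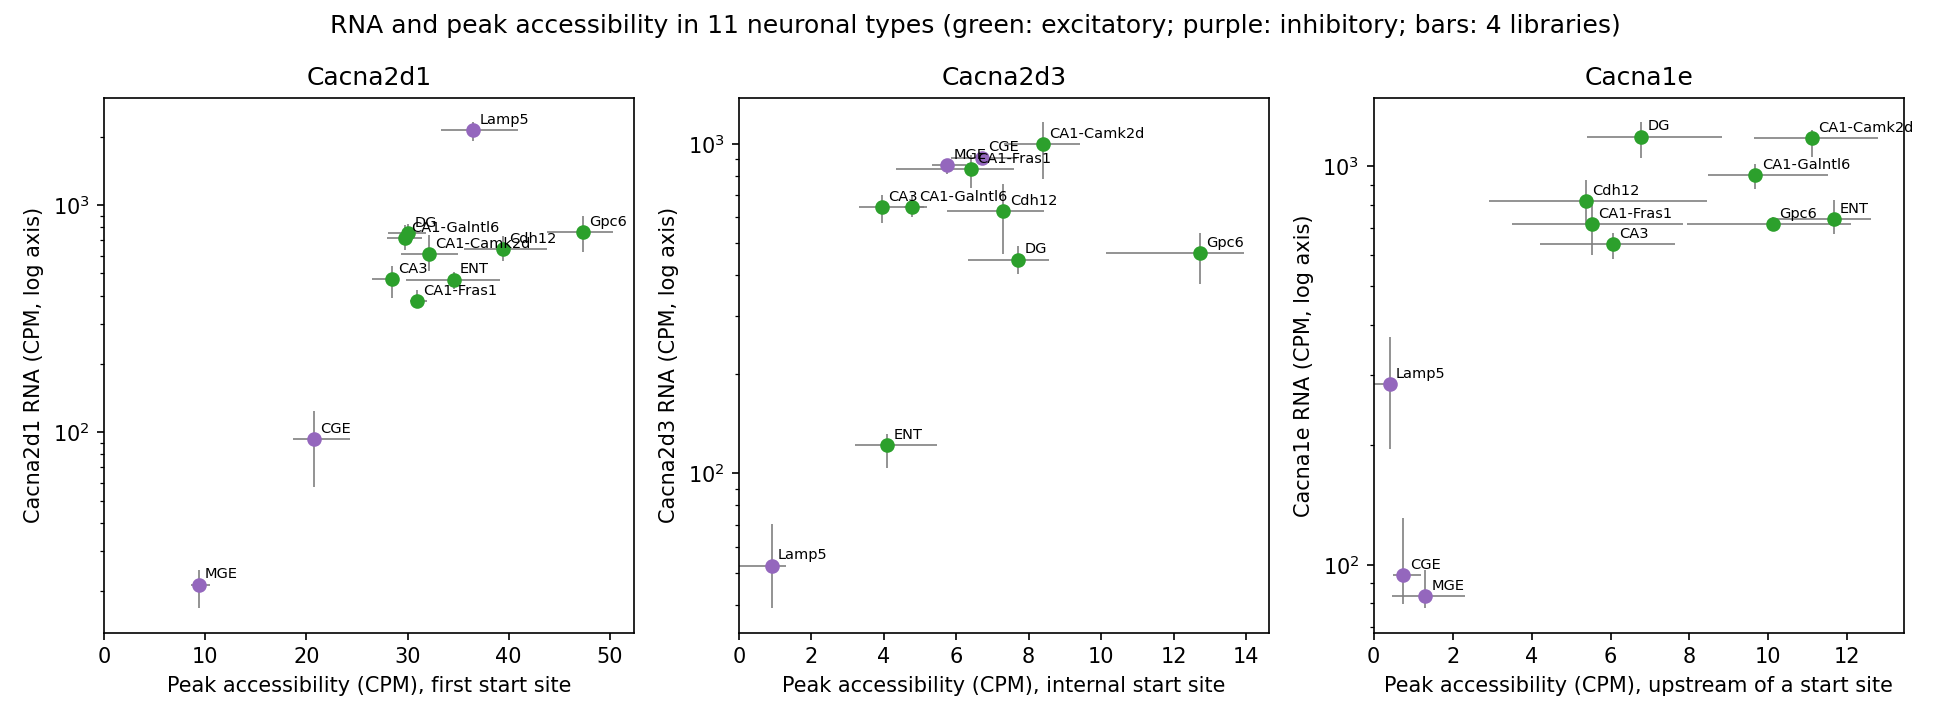
RNA level (CPM, log axis) against peak accessibility (CPM) in 11 neuronal types for the Cacna2d1 start, the Cacna2d3 internal start and a peak upstream of a Cacna1e start; points are means, bars span the 4 libraries of each assay, green is excitatory and purple inhibitory. Inh-MGE is lowest in both measures for Cacna2d1, Inh-Lamp5 for Cacna2d3, and the 3 inhibitory types sit at the left for Cacna1e.

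A peak 5′ of an annotated Cacna1e start (chr1:154865695-154866811) was open in excitatory and nearly closed in inhibitory neurons. Its middle 250 bases hold no CG dinucleotide and are printed because this peak also differed between strains (GRCm38.p6, minus strand, 5′ to 3′).
Cacna1e upstream peak, chr1:154866129-154866378: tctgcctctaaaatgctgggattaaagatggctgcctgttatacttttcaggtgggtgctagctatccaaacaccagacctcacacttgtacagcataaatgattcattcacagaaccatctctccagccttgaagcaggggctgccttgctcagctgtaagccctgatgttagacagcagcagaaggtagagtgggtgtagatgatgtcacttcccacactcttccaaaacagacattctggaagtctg
None of the 3 motifs occurs in it. The 8 excitatory types had mean levels of 5.38 to 11.7 CPM and the 3 inhibitory types 0.406 to 1.30 CPM, and no inhibitory library reached an excitatory one. The correlation with Cacna1e RNA was 0.849 over 11 neuronal types, read as above. Other Cacna1e peaks near starts were lower, at 0.235 for chr1:154726240-154727077, the peak within 1 kb of a start, and at 0.493 and 0.597. Over all members the values of such peaks ran from -0.223, at a Cacna1c peak, to 0.902, at the Cacna2d1 peak. A peak near a start thus did not always follow the RNA across types.

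Strain differences at the start sites were tested in the 3 types with the most snATAC-seq counts, Exc-DG, Exc-CA1-Galntl6 and Exc-CA3. Within 1 kb of an annotated start the members had 17 peaks, and 0 of 51 tests were called by edgeR, with 5 at an unadjusted p under 0.05, while DESeq2 gave 0 and 0. Of all peaks, 5.97% were called in Exc-DG, 5.28% in Exc-CA1-Galntl6 and 5.03% in Exc-CA3. The log2 fold changes ran from -0.57 to 0.55. At the Cacna1a peak nearest to a start, for example, Exc-CA3 stood at 11.6 and 11.9 CPM in B6 and 11.4 and 10.8 CPM in D2 (log2 fold change -0.09, SE 0.12, adjusted p = 0.798), in the type where Cacna1a RNA was 1.92-fold higher in B6.

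Within 2 kb there were 23 peaks and 69 tests, of which 3 were called, all higher in D2. The Cacna1e peak above was at 5.67 and 5.39 CPM in B6 and 8.82 and 7.26 CPM in D2 (log2 fold change 0.52, SE 0.14, adjusted p = 0.00581) in Exc-DG, where Cacna1e RNA was lower in D2. In Exc-CA3 it was at 5.38 and 4.22 CPM in B6 and 7.02 and 7.63 CPM in D2 (log2 fold change 0.60, SE 0.16, adjusted p = 0.00789), where the RNA was not called. The third was a Cacna1c peak (chr6:119105530-119106252) in Exc-CA1-Galntl6, at 3.86 and 3.89 CPM in B6 and 6.08 and 6.63 CPM in D2 (log2 fold change 0.72, SE 0.17, adjusted p = 0.00132), with the RNA at -0.03 and not called. In all 3 the D2 libraries were above the B6 libraries. DESeq2 called none of them. It also called fewer of all peaks, in Exc-DG 2525 higher and 2312 lower in D2 against 10071 and 7675 by edgeR. Leaving out B6 library 3, D2 library 2 or D2 library 3 ended part of the calls. Over all peaks of Exc-CA3, too, the fits that left 1 D2 library called far fewer than the main fit.

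Other genes of the pathway were read in Exc-DG from 4 lists, beside the 13.8% of all genes lower and 22.2% higher in D2 in that type. In the fit of symbols counted in both strains, 2152 of 15759 were lower and 1845 higher. Of 11 other channel subunit genes, 9 were tested and 1 was lower in D2, Cacnb2, a beta subunit that binds the pore from inside the cell, at 1208 and 1125 CPM in B6 and 1041 and 974 CPM in D2 (log2 fold change -0.21, SE 0.06, adjusted p = 0.019). Of 6 genes related to channel gamma subunits that serve as AMPA receptor auxiliary proteins, all were tested and Cacng8 was lower, at 187 and 170.0 CPM in B6 and 156 and 149 CPM in D2 (log2 fold change -0.23, SE 0.07, adjusted p = 0.0314). Of 16 channel partners 13 were tested. Calm2, a calmodulin gene, was higher in D2, at 223 and 219 CPM in B6 and 280.2 and 309.9 CPM in D2 (log2 fold change 0.42, SE 0.07, adjusted p = 0.000307). Rims2 was higher and Rims1 lower, both active zone scaffolds that tether channels at release sites, at 297 and 323 CPM in B6 and 359.8 and 358 CPM in D2 (log2 fold change 0.21, SE 0.07, adjusted p = 0.0267) and 1592 and 1528 CPM in B6 and 1376 and 1256 CPM in D2 (log2 fold change -0.24, SE 0.06, adjusted p = 0.00739). Stac, an adaptor of L-type channels, was higher at a level of few CPM, with 0.97 and 1.06 CPM in B6 and 1.89 and 3.23 CPM in D2 (log2 fold change 1.31, SE 0.38, adjusted p = 0.0139). Of 5 calcium-activated potassium channel genes 4 were tested and Kcnn2, a small-conductance channel opened by incoming calcium, was lower, at 170.2 and 162 CPM in B6 and 122 and 116 CPM in D2 (log2 fold change -0.48, SE 0.07, adjusted p = 0.000114). The median log2 fold changes of the lists in Exc-DG were -0.06, -0.18, 0.12 and -0.27 in the order above. They stand beside 0.06 over all genes and 0.01 over genes found in both strains. Over all types and by edgeR the 4 lists gave 4 higher and 10 lower pairs of 107, 1 and 9 of 76, 19 and 19 of 180, and 2 and 11 of 55, in the order above. These shares stand beside the 9.26% lower and 12.9% higher over all gene symbols, and the 9.31% lower and 7.22% higher among symbols counted in both strains.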

How the data were processed

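snRNA-seq was analysed in 4 libraries and snATAC-seq in 4, 2 per strain and assay, of 24 samples in the series, and single-nucleus methylation was not analysed here. The authors aligned snRNA-seq reads with Cell Ranger 6.0.2, keeping intronic reads, to mm10 for B6 and to mm10 carrying DBA/2J variants for D2, removed doublets and clustered nuclei with Seurat 4.0.5. Their deposited values are raw counts per gene, summed over the nuclei of a cell type and library. For snATAC-seq the authors used Cell Ranger ATAC 2.0.0, merged peaks called per sample, took cell types from the snRNA-seq data, and deposited raw counts per peak. Their transfer of types matched RNA to accessibility summed over gene bodies and just upstream. Strand use in counting and the annotation release are not given in the sources used here. An alignment to a strain's own variants can change how many reads of a gene are counted in that strain.

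Each cell type was tested separately on these counts with the quasi-likelihood F test of edgeR 4.0.16 in R 4.3.3 (TMM scaling, filterByExpr, Benjamini-Hochberg adjustment over all genes, called at 0.05). The strain by cell type interaction was fitted over all types with library as a term. Accessibility was tested on all peaks with 10 or more counts in a type. DESeq2 1.42.0, RLE scaling, other filters, replicate blocks and leaving out each library were alternatives. Scripts were tested on simulated counts. Genes in class comparisons and likeness had 5 CPM or more. Strains came from the labels. The tables number libraries 2 and 3 and the labels number replicates 1 and 2, so no result rests on matching a library to a labelled replicate. Library numbers were matched or crossed between strains only in the replicate block alternatives. All 10 members were named throughout, the 10 called pairs with the smallest adjusted p and each member's highest and lowest neuronal type were given in full, and genes of the lists were named where called in Exc-DG. The rule for the members is a list of names, but that list and the gene lists were chosen with earlier results of these data known. Gene positions are from GENCODE on GRCm38 and promoter sequences from RefSeq on GRCm38.p6, which held 7 of the 10 members.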

Additional observations from a re-analysis of the deposited data

Results flagged for a closer look

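The strain difference of 4 genes differed between cell types by the test of the strain by cell type terms (edgeR, adjusted over all genes). Cacna1a was at adjusted p = 4.29e-23, with D2 higher in NN-MGC and lower in the means of the other 16 types. Cacna1e was at adjusted p = 2.55e-10, with D2 higher in Inh-Lamp5 (log2 fold change 0.85) and lower in 7 other types by the test within each. Cacna1h was at adjusted p = 0.0104 and ranged from 0.00128 to 0.277 over 10 alternatives. Cacna1i was at adjusted p = 0.0449 and ranged from 0.0127 to 0.571.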

How the results depend on the processing

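Of the 36 strain calls, 17 passed under all 10 alternatives. Over 360 alternative values 305 passed with the same sign, 55 no longer passed and 0 changed sign. The total was 22 without D2 library 3, which ended 17 calls, 58 at an unadjusted p under 0.05, and 26 with DESeq2, which ended 10. Leaving out 1 library at a time gave 22 to 41 calls. Same-numbered libraries were not shown to be paired, since their deviations had a median correlation of -0.064 over 17 types (-0.258 to 0.111). A replicate block on the number gave 35 calls, and the crossed numbers, added after the data were seen, gave 38. For the interaction, 2 of 10 genes passed with no library term, 2 without D2 library 2, 5 with DESeq2, 5 with genes of at least 1 count, and 2 to 4 when 1 library was left out. For accessibility, a 2 kb window gave 3 calls in place of 0, and no leave-one-out or replicate block fit of the 1 kb window gave any. The cause of these changes was not tested. All 10 genes were higher in neurons under 7 alternatives, of which the minimum of 100 nuclei removed no cell type. The inhibitory comparison gave 5 to 7 genes. With 2 libraries per strain, small differences and genes with few counts, such as the T-type genes, were not resolved.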

Other observations

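Peaks within the gene bodies were counted after the data were seen, beside the 5.97%, 5.28% and 5.03% of all peaks called in Exc-DG, Exc-CA1-Galntl6 and Exc-CA3 (edgeR, adjusted p under 0.05 over all peaks, either direction). Of 107 peaks within Cacna1e, 5 were higher and 6 lower in D2 in Exc-DG, 7 and 6 in Exc-CA1-Galntl6, and 9 and 2 in Exc-CA3. In all 3 types 5 of the Cacna1e peaks were called, with log2 fold changes given in that order of types. The peak at chr1:154484403-154485066 was higher in D2 (1.53, 1.37 and 1.56), as were chr1:154500221-154501105 (0.63, 0.71 and 0.62) and chr1:154815876-154817196 (0.43, 0.40 and 0.62). The peaks at chr1:154498834-154499168 (-0.62, -1.03 and -1.02) and chr1:154861041-154861921 (-0.77, -0.81 and -1.41) were lower.

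Of 15 peaks within Cacna1h, 1 was higher and 2 lower in Exc-DG, 1 and 0 in Exc-CA1-Galntl6, and 2 and 1 in Exc-CA3. Of 111 peaks within Cacna2d1, 6 were higher and 0 lower in Exc-DG, 0 and 2 in Exc-CA1-Galntl6, and 0 and 1 in Exc-CA3, which in Exc-DG is near the share over all peaks and in the others below it. Of 149 peaks within Cacna2d3, 0 were called in Exc-DG, 5 were lower in Exc-CA1-Galntl6 and 2 in Exc-CA3. The other 6 genes had 0 to 4 called peaks in each type.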
